A study of Mus musculus with 3 samples.

Results

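The genes described are the G1 cyclins Ccnd1, Ccnd2, Ccnd3, Ccne1 and Ccne2, their kinases Cdk2, Cdk4 and Cdk6, the inhibitor gene Cdkn1b, which encodes p27, and the retinoblastoma gene Rb1. They are 10 of the 21153 gene symbols on the array, and every probe whose RefSeq accession belongs to one of them was taken, which gave 14 probes of 39429. Each of 3 two-colour arrays set RNA of embryoid bodies with the genotype Hopx-/-, grown with the Wnt inhibitor XAV939 at 12.5 µM, against RNA of Hopx+/- embryoid bodies. RNA of both was isolated on day 8 of cardiac differentiation. An embryoid body is a ball of embryonic stem cells left to differentiate, and XAV939 blocks tankyrase, which stabilises axin and lowers β-catenin. Both genotypes were differentiated as hanging drops and then plated in serum-free medium with VEGF, bFGF, FGF10 and ascorbic acid; whether the heterozygous cultures received a vehicle is not stated. The stem cells came from mouse blastocysts and were kept on feeder cells; how many lines stand behind a genotype is not stated in the labels. The groups differ in genotype and in inhibitor at once, so the contributions of these cannot be told apart. The series' design text calls the arrays biological replicates, and their number limits the precision.

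In G1, D-type cyclins bind CDK4 or CDK6 and E-type cyclins bind CDK2, and both kinds of complex phosphorylate the retinoblastoma protein. Phosphorylation releases E2F transcription factors, which switch on genes of DNA replication and also Ccne1. The protein p27 binds and inhibits cyclin-CDK2 complexes. Mouse embryonic stem cells are known for a short G1 phase with high cyclin E-CDK2 activity, and G1 lengthens as they differentiate. Ccnd1 is a textbook target of β-catenin and TCF, and Ccnd2 is counted among the Wnt targets as well.

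Values are log2 ratios of the null culture with inhibitor over the heterozygous culture within an array, so that 1 on this scale is a doubling. By the labels Cy5 carries the null RNA throughout. Across all probes, however, replicate 3 correlated at -0.71 and -0.77 with replicates 1 and 2 in its ratio of Cy5 to Cy3, against 0.83 between these. The sign of replicate 3 was turned, as it is in the authors' deposited values, after which the tested genes correlated at 0.97, 0.90 and 0.92 between arrays. The direction is therefore likely rather than settled. Hopx, the targeted gene, had log2 ratios of -2.65, -2.75 and -2.73 at its brighter probe with replicate 3 turned; whether that probe lies in the deleted part is not given. Were the overall direction the opposite one, every sign below would turn, with Ccnd1 at -1.88 and Ccnd2 at 1.69. Replicate 1 lay on one slide and replicates 2 and 3 on another.

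RefSeq promoter windows were at hand for 6 of the 10 genes, Ccnd3, Ccne1, Cdk2, Cdk4, Cdk6 and Cdkn1b. The 250 bases before the start are printed 5′ to 3′ on the gene's strand (build GRCm38.p6) for 3 genes called in the reported fit. They are the E cyclin gene with the highest ratio among the members, the kinase gene that rose, and the inhibitor gene that fell. The call of the kinase gene, Cdk4, did not hold under several alternatives given below. The windows of Ccnd3, which also fell, are not printed. Capitals mark a match to a TCF/LEF core, searched on both strands as the letters CTTTG followed by AA, TT, AT or TA.
Ccne1 (chr7:38107491-38107740, - strand): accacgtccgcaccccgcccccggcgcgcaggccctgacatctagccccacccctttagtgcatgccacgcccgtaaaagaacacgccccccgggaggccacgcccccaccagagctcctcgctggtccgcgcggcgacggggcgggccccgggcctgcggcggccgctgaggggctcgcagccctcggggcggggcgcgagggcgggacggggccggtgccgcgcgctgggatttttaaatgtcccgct
Cdk4 (chr10:127063285-127063534, + strand): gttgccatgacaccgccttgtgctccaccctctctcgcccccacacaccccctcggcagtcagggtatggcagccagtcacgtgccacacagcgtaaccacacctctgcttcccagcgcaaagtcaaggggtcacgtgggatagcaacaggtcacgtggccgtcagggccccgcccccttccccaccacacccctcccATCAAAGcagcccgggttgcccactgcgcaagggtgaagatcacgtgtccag
Cdkn1b (chr6:134920151-134920400, + strand): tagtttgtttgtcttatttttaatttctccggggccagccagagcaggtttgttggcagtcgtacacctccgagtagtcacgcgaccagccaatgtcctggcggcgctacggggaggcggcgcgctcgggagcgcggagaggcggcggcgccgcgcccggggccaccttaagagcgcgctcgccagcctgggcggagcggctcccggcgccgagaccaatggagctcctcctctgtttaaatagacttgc
The match in Cdk4, on the opposite strand, starts 52 bases before the gene's start. Of 32851 RefSeq windows of this length, 14.8% held such a match. A second motif, the E2F site searched as TTTCGCGC, TTTGGCGC, TTTCCCGC and TTTGCCGC on both strands, was found in 1.86% of all windows and, among the 6 genes, in Cdk2 alone, 140 bases before its start. These are matches of letters and no evidence of binding, and a window without one says nothing about the factor.

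The G1 genes moved in both directions, and the D-type cyclins split. In the null cultures with inhibitor RNA of Ccnd1 was 3.69-fold higher and that of the E cyclin Ccne1 3.78-fold higher, while Ccnd2 was 3.22-fold lower and Ccnd3 2.35-fold lower. The inhibitor gene Cdkn1b fell 1.55-fold and Rb1 fell 1.92-fold. Cdk4 was 1.30-fold higher, Cdk2 did not pass the test, and Ccne2 and Cdk6 were too dim to be tested. A difference in such cultures can come from a different share of cells of a type or from a different amount of RNA per cell, and these cannot be told apart.

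Of the 8 members tested, 3 rose and 4 fell at an adjusted p below 0.05 (limma, Benjamini-Hochberg over 14705 tested genes). The background is high, since 64.5% of all tested genes passed the same test, 31.5% higher and 33.0% lower. Passing the test therefore sets a gene little apart here, and the size and direction of each ratio are given below. The median of the members was -0.24 and that of all tested genes -0.01. Over probes, 6 member probes rose and 5 fell of 12 tested, where 28.7% and 31.4% of 24376 tested probes did. Probes of a gene that were tested had the same sign throughout, for Ccnd3, Ccne1 and Cdk4.

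Ccnd1 encodes cyclin D1, which links growth factor and Wnt signals to CDK4 and CDK6. Its single probe gave log2 ratios of 1.79, 1.99 and 1.86 on replicates 1, 2 and 3. On the normalized log2 signal scale the heterozygous RNA read 11.37, 11.36 and 11.66 and the null RNA 13.17, 13.35 and 13.52. The mean ratio was 1.88 ± 0.10 (SD, n = 3, as for all genes below; adjusted p = 1.09e-06). Only 1.35% of tested genes had a higher mean ratio. The unprocessed signals show the turn of replicate 3: the median pixel intensity of the Ccnd1 spot was 11482 in Cy5 and 1825 in Cy3 on replicate 1, against 3434 in Cy5 and 9154 in Cy3 on replicate 3.

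Ccnd2 encodes cyclin D2, which binds the same kinases. Its single probe read -1.61, -1.53 and -1.92, with the null RNA at 11.05, 11.03 and 10.77 and the heterozygous RNA at 12.65, 12.57 and 12.69 on the normalized log2 signal scale. All 3 arrays were thus low for the null RNA, replicate 3 the most. The mean ratio was -1.69 ± 0.20 (adjusted p = 3.34e-06), and 3.20% of tested genes had a lower one.

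Within each array the log2 ratio of Ccnd1 exceeded that of Ccnd2 by 3.40, 3.52 and 3.78, a mean difference of 3.57 ± 0.19 (SD, n = 3). This corresponds to an 11.9-fold shift of Ccnd1 relative to Ccnd2 between the cultures. The smallest of the 3 differences was far above their spread, but an exact two-sided sign-flip permutation test over 3 arrays cannot give a p below 0.25, and gave 0.25 here, also when adjusted over the 3 pairs of D cyclins. Ccnd1 was set against Ccnd2 with earlier results of these arrays known, so the contrast is a description. It compares changes only: signals of different probes cannot be set against each other, so which D cyclin RNA is the more abundant in either culture was not measured. The log2 ratio of Ccnd1 exceeded that of Ccnd3 by 3.11 ± 0.10. Ccnd3 exceeded Ccnd2 by 0.46 ± 0.10, on every array.

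**Figure D1:**
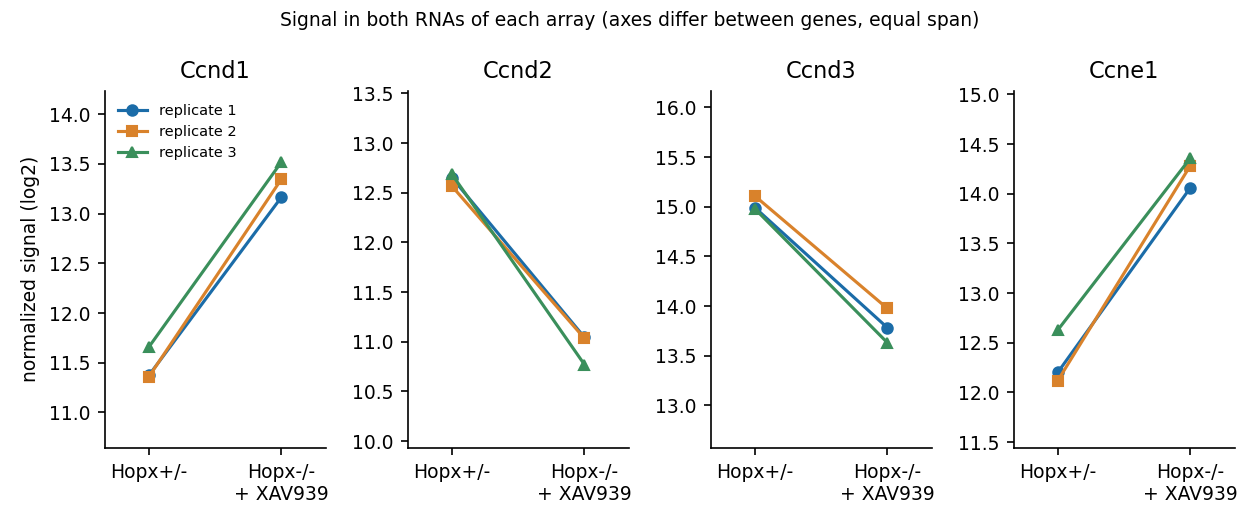
Normalized log2 signal (y axis, a separate range of equal span for each gene) in the Hopx+/- and the Hopx-/- plus XAV939 RNA of each array, joined by a line for each replicate. Ccnd1 and Ccne1 climb on all 3 arrays and Ccnd2 and Ccnd3 descend on all 3.

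Ccnd3, the gene of cyclin D3, was read by 2 probes designed on different accessions. The brighter probe gave -1.21, -1.13 and -1.35 and the dimmer one -1.15, -1.29 and -0.79. The means were -1.23 ± 0.11 (adjusted p = 1.15e-05) and -1.07 ± 0.26, so the probes differed by less than the spread of the dimmer one over the arrays. In heterozygous RNA the brighter probe read 14.99, 15.11 and 14.98 on the normalized log2 signal scale, against 13.78, 13.98 and 13.63 in null RNA.

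Ccne1 encodes cyclin E1, the partner of CDK2 at the entry into S phase and itself an E2F target. Its brighter probe gave ratios of 1.86, 2.16 and 1.73, a mean of 1.92 ± 0.22 (adjusted p = 1.92e-06). The dimmer probe gave 1.58, 1.93 and 1.30, a mean of 1.60 ± 0.32. Both probes were highest on replicate 2 and lowest on replicate 3. The null RNA read 14.06, 14.28 and 14.36 at the brighter probe, and the heterozygous RNA 12.20, 12.12 and 12.63. The ratio of Ccne1 lay within its own spread of that of Ccnd1, a difference that was not tested. Ccne2, the gene of cyclin E2, had 1 probe that was well above background in neither RNA on any array, with spot intensities of 30 to 39 in Cy3 over local backgrounds of 27 to 31, and of 47 to 101 in Cy5 over 46 to 49. No ratio is therefore drawn for Ccne2.

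The tested kinase genes, Cdk4 and Cdk2, moved little in the reported fit. Cdk4, which encodes a partner of the D cyclins, had 3 probes with mean ratios of 0.40 ± 0.05, 0.38 ± 0.17 and 0.57 ± 0.09, all positive on every array. The brightest of them, taken for the gene, gave 0.41, 0.52 and 0.19 (adjusted p = 0.0135, 95% interval from 0.13 to 0.62). Its call did not hold under 5 alternatives: without replicate 1 (0.36, adjusted p = 0.0771), without replicate 2 (0.30, adjusted p = 0.151), with marked local backgrounds kept (0.38, adjusted p = 0.0540), with the authors' deposited values (0.22, adjusted p = 0.171) and with median centring (0.71, adjusted p = 0.0637). Cdk2, the partner of the E cyclins, gave 0.00, 0.17 and 0.27, a mean of 0.15 ± 0.14 (adjusted p = 0.242). The 95% interval of the Cdk2 ratio ran from -0.09 to 0.38, which does not show that it was the same in both cultures. The single Cdk6 probe was well above background in heterozygous RNA on 2 of 3 arrays and in null RNA on 1, and was not tested.

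Cdkn1b gave ratios of -0.55, -0.55 and -0.81, a mean of -0.64 ± 0.15 (adjusted p = 0.000698). Null RNA read 10.70, 10.62 and 10.39 and heterozygous RNA 11.25, 11.17 and 11.20 on the normalized log2 signal scale. With median centring in place of loess the gene did not pass (-0.43, adjusted p = 0.219).

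Rb1 was read by 1 probe printed on 10 spots of each array, which separates spot error from the difference between arrays. The spots of replicate 1 ranged from -0.92 to -0.72 (SD 0.055), those of replicate 2 from -1.09 to -0.87 (SD 0.087) and 9 usable spots of replicate 3 from -1.18 to -0.78 (SD 0.116). Every spot was negative. The array means of -0.80, -0.97 and -1.05 gave -0.94 ± 0.13 (adjusted p = 5.93e-05). This SD is of array means, each over 9 or 10 spots, so it is not directly comparable with the SDs of single spots.

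**Figure D2:**
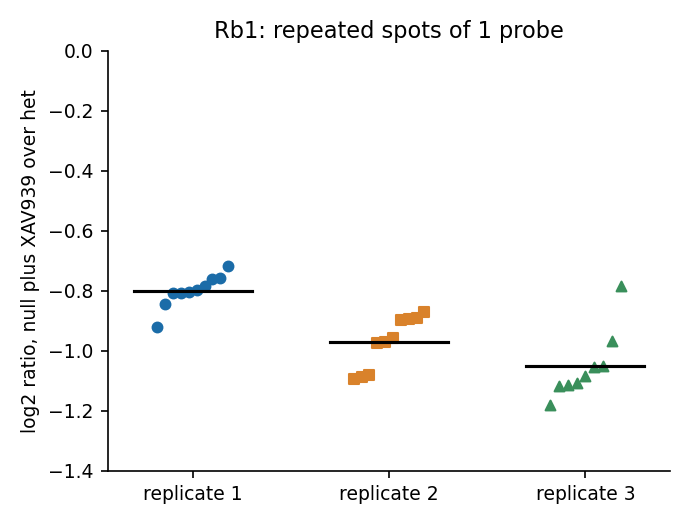
Log2 ratio (y axis) of the repeated spots of the single Rb1 probe on each array, sorted within an array, with the array mean as a bar. All spots lie between -1.18 and -0.72, and the 3 array means between -1.05 and -0.80.

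Other CDK inhibitor genes mostly fell with Cdkn1b. Of 6, 4 were lower and 1 higher, against 33.0% lower and 31.5% higher of all tested genes. Cdkn1a, which encodes the p53 target p21, fell 3.10-fold (-1.65, -1.54 and -1.70 on the arrays, mean -1.63 ± 0.09, adjusted p = 2.11e-06). Cdkn1c, the gene of p57, was at -1.40 ± 0.19, and the INK4 genes Cdkn2d and Cdkn2c were at -0.78 ± 0.14 and -0.39 ± 0.09, the latter well above background in null RNA on 2 of 3 arrays. Cdkn2b, which encodes p15, an inhibitor of CDK4 and CDK6, went the other way at 1.25, 1.62 and 1.49, a mean of 1.45 ± 0.19 (adjusted p = 6.99e-06). Cdkn2a lay at -0.06 ± 0.53 and did not pass. With median centring 2 of the 6 were lower.

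Among the pocket protein and E2F genes, 9 of 12 rose and 1 fell, against 31.5% and 33.0% of all tested genes. The median of the 12 was 0.72. The median was 0.37 when all tested probes of a gene were averaged. The activator genes E2f1 (1.45 ± 0.15), E2f2 (1.22 ± 0.15) and E2f3 (0.64 ± 0.32) and the dimer partners Tfdp1 (1.48 ± 0.40) and Tfdp2 (0.63 ± 0.07) rose, as did E2f4 (1.02 ± 0.07) and the repressor genes E2f7 (0.69 ± 0.19) and E2f8 (0.90 ± 0.23). The pocket proteins split: Rbl1, which encodes p107, rose (0.98, 0.97 and 0.31, mean 0.76 ± 0.38), while Rbl2, the gene of p130, fell (-0.37 ± 0.22, adjusted p = 0.0197) together with Rb1. The call of Rbl2 was lost in 5 of 12 alternatives. E2f5 (0.16 ± 0.14) and E2f6 (-0.07 ± 0.06) did not pass.

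Textbook E2F targets of S phase rose, 16 of 17 with none lower and a median of 1.01. They ranged from Mybl2 (0.12 ± 0.27), which did not pass, to the replicative helicase subunit gene Mcm3 (2.22, 2.43 and 1.91, mean 2.19 ± 0.26, adjusted p = 1.27e-06). Among 12 settings other than the reported one, and with replicate 3 turned, 14 to 17 of them were higher. The lowest of those that rose was Cdc45, a part of the replicative helicase (0.59 ± 0.39). Of 5 cyclin and kinase genes of S and M phase 2 rose and 1 fell, with a median of 0.14. For comparison with both lists, 31.5% of all tested genes rose and 33.0% fell. Ccnb1, a mitotic cyclin, rose (0.82 ± 0.11) and so did Ccna2 (0.52 ± 0.12), Ccnf fell (-0.52 ± 0.10), and Cdk1 (0.14 ± 0.24) and Ccnb2 (0.03 ± 0.31) did not pass. Without replicate 3, 4 of the 5 rose, and the median was 0.26, against 0.02 without replicate 2. With median centring none fell and the median was 0.39.

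Of 8 genes that activate CDKs or set their inhibitory phosphorylation, 4 rose and 1 fell, against 31.5% and 33.0% of all tested genes. The 8 ratios ran from Cdc25a, a phosphatase that activates CDK2 (0.54 ± 0.18), to Mnat1, an assembly factor of the CDK activating kinase (-0.53 ± 0.19). With median centring 1 rose and none fell, without replicate 2 there were 2 that rose and 1 that fell, and without replicate 3 there were 5 and 2. Of 10 genes of ubiquitin ligases that turn over G1 cyclins and p27, 4 rose and 1 fell, against the same shares of all tested genes. Fbxw7, the receptor for cyclin E (0.57 ± 0.09), Fbxo31, an F-box protein that targets cyclin D1 (0.75 ± 0.07), the scaffold gene Cul1 (0.56 ± 0.31) and Cks1b, a gene of p27 turnover (0.36 ± 0.14), rose. Fbxo4, also linked to cyclin D1 turnover, fell (-1.32, -1.08 and -1.15, mean -1.18 ± 0.12, adjusted p = 1.54e-05). Skp2, the receptor for p27, lay at 0.09 ± 0.24 and did not pass. With median centring 1 of these 10 rose and 1 fell, without replicate 2 the counts were 2 and 1, and without replicate 3 they were 6 and 1.

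**Figure D3:**
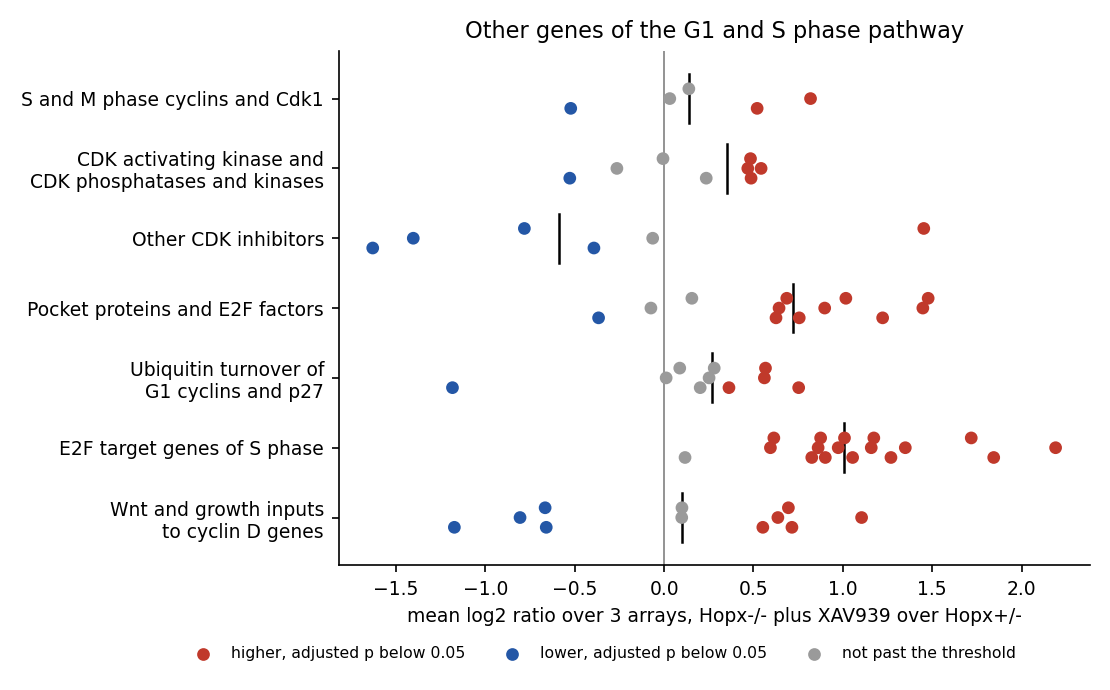
Mean log2 ratio over 3 arrays (x axis) of each tested gene in 7 lists of the pathway (rows), coloured by call, with each list's median as a bar. E2F targets of S phase lie to the right of zero without exception, CDK inhibitors lie mostly to its left, and the genes that feed into cyclin D transcription lie on both sides.

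Of 11 genes that feed into transcription of the cyclin D genes, 5 were higher and 4 lower. Of all tested genes 31.5% were higher and 33.0% lower, so a split in both directions sets this list little apart. The β-catenin partners Lef1 (1.11 ± 0.19), Tcf7 (0.55 ± 0.15) and Tcf7l1 (0.72 ± 0.11) rose with Ccnd1, as did the MYC family gene Mycn (0.64 ± 0.36) and the forkhead gene Foxo1 (0.70 ± 0.08). Tcf7l2 (-1.52, -1.47 and -0.53, mean -1.17 ± 0.56), Foxo3 (-0.67 ± 0.13, well above background in null RNA on 2 of 3 arrays) and the kinase gene Gsk3b (-0.66 ± 0.11) fell. Ctnnb1, which encodes β-catenin (0.10 ± 0.16), and Myc (0.10 ± 0.14) did not pass.

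Markers of cell types moved with these genes, and their part in the changes of the G1 genes was not tested. Of all tested genes 31.5% were higher and 33.0% lower. All 10 pluripotent and epiblast markers were higher, from Lin28a (0.68 ± 0.41) to Pou3f1 (4.46 ± 0.28), and their summed normalized signal was 124124 to 150300 in null RNA against 27692 to 34807 in heterozygous RNA. All 10 endoderm markers were lower, from Gata6 (-1.93 ± 0.32) to Cubn (-5.54 ± 0.61), with sums of 6907 to 13276 against 153262 to 171576. All 10 cardiomyocyte markers were lower, from Tnnt2 (-0.96 ± 0.14) to Myh7 (-2.63 ± 0.36), with sums of 33022 to 40278 against 156898 to 182766. Every one of these 30 markers was well above background in both RNAs on all 3 arrays. Neural markers held 4 higher and none lower of 6 tested, Pax6 and Neurog2 being too dim to test, with sums of 16678 to 18002 against 2262 to 2800. Those that rose ran from Map2 (1.27 ± 0.12) to Tubb3 (3.48 ± 0.25), while Sox1 (0.32 ± 0.31) and Dcx (0.07 ± 0.15) did not pass. Of 8 mesenchyme and feeder fibroblast markers 1 rose, Thy1 (0.97 ± 0.06), and 4 fell, Col1a1 the most (-2.81 ± 0.38), with sums of 18838 to 29279 against 32981 to 48409. Of 6 endothelial ones 4 rose, up to Cdh5 (1.34 ± 0.24), and Tek fell (-0.34 ± 0.28), with sums of 7095 to 8552 against 4318 to 5127. Of 5 tested blood markers, Ptprc being too dim, 3 rose, from Hbb-bh1 (0.39 ± 0.38) to Hbb-y (1.04 ± 0.47), with sums of 59770 to 82148 against 40374 to 56339. The arrays differed here: the median of the blood markers was 0.66, -0.04 and 0.63 on replicates 1, 2 and 3. Hbb-bh1 itself was slightly negative on replicate 2.
Of 6 general proliferation markers 5 rose, from Cenpf (0.29 ± 0.18) to Plk1 (1.14 ± 0.31), with sums of 73405 to 80021 against 43424 to 48849. Mki67 (0.67, 0.29 and -0.04) did not pass.

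**Figure D4:**
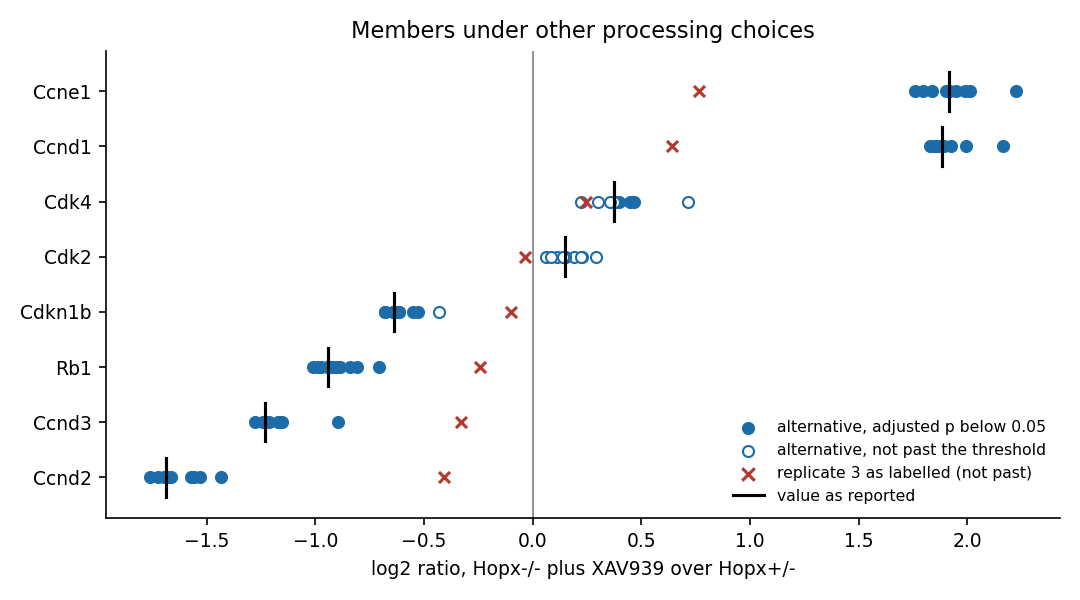
Log2 ratio (x axis) of the 8 tested members (rows) under each alternative setting, filled where the adjusted p was below 0.05 and open where it was not, with the reported value as a bar and a cross for replicate 3 used as labelled. Ccnd1 and Ccne1 stay at 1.76 or higher and Ccnd2 stays at -1.43 or lower under the other settings, while Cdk4 is open at several and Cdk2 at all.

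With the slides taken apart, Ccnd1 read 1.79 on the first and 1.93 as the mean of the second, Ccnd2 -1.61 and -1.72, and Ccne1 1.86 and 1.95. If replicate 3 was left in the labelled orientation, no gene passed limma's test (0 higher, 0 lower of 14705; 13 and 27 had an unadjusted p below 0.05), and Ccnd1 and Ccnd2 lay at 0.64 and -0.41.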

How the data were processed

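RNA levels were read on 3 Agilent arrays with 2 colours each, of probe design 026655 annotated on mm9 per the file headers. Spot and local background signals are median pixel intensity as deposited, extracted with Agilent Feature Extraction (8.5.1.1 per the submitters' processing notes, but 11.5.1.1 in the header lines). Per the file headers Feature Extraction subtracted background, normalized the dyes and took the log10 of red over green as its log ratio. The authors' deposited values had slopes of 0.920, 0.932 and -0.942 on the scanners' log2 ratio over spots with both processed signals above 2000, where natural logs would give 0.693 and log10 0.301, and were taken as log2 (column medians 0.085, -0.08 and 0.053); their normalization and centring are not stated.

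Local backgrounds marked as outliers were replaced by the channel's median. Signals were then corrected by normexp (offset 50) and loess-normalized within arrays in limma 3.58.1 (R 4.3.3), with control spots and marked spots given no weight. Signals shown per RNA were also scaled between arrays (Aquantile). Of 39429 probes, 28025 had 1 symbol through RefSeq accessions, 0 had several and 11404 had none. Probes were tested where every array had a channel well above background, and the brightest such probe stood for its gene. Limma's moderated test compared the mean ratio with 0 on 8.65 degrees of freedom. The share of probes well above background was 56.6% to 68.0% per array and channel, and the median SD over arrays was 0.166. The reported test held no slide term. A random slide block could not be estimated from 3 arrays, so a fixed slide term was fitted, as an alternative only. The p-values rest on the spread between these arrays, with each gene's variance drawn towards one pooled over all tested genes. The pooled variance supplied 6.65 of the 8.65 degrees of freedom, more than a gene's own 3 arrays. All members were named, and of each list the called genes with the highest and lowest ratio, with all called genes of the inhibitor, E2F, ubiquitin and Wnt lists, except 1 that is counted but not reported here; genes named as not past the test, and further ones in the remaining lists, were chosen after their values were seen. The members and lists were chosen with earlier results of these data known.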

Additional observations from a re-analysis of the deposited data

How the results depend on the processing

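Ccnd1 (1.83 to 2.16), Ccnd2 (-1.76 to -1.43), Ccnd3 (-1.28 to -0.89), Ccne1 (1.76 to 2.23) and Rb1 (-1.01 to -0.71) kept their direction and passed under each of 12 alternatives with replicate 3 turned. These were no background subtraction, marked backgrounds kept, median centring, the Feature Extraction log ratio, the authors' values, no filter, both channels above background, the mean over probes, the slide as a fixed term (added after the data were seen) and leaving out each replicate. The Ccnd1 to Ccnd2 difference ranged from 3.38 to 3.67. Cdk4 lost its call in 5 and Cdkn1b in 1 of them, as given above. Over all genes, marked backgrounds kept gave 2667 higher and 2258 lower, and median centring 3034 and 2019, a share of 60.0% higher among called genes against 48.9%, with the median of all tested genes at 0.10 instead of -0.01; the cause was not tested. With replicate 3 as labelled, 0 genes were higher and 0 lower, 0 members were higher and 0 lower, Ccnd1 was at 0.64 (adjusted p = 0.995), Ccnd2 at -0.41 (adjusted p = 0.995) and their difference at 1.05. Leaving out 1 replicate gave 3500 to 5278 genes higher and 3709 to 5340 lower, 2 to 3 members higher and 4 lower, Ccnd1 from 1.83 to 1.93, Ccnd2 from -1.76 to -1.57 and a difference from 3.46 to 3.65. No paired analysis was possible because all replicates form 1 group, beyond the pairing of both RNAs within an array that each ratio already makes. Signal over background limits Ccne2 and Cdk6, which had no filter-free call either (0.01 and 0.00).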
